A study of Homo sapiens with 32 samples.

Results

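The DLX genes are 6 homeobox genes, DLX1 to DLX6, among the 19815 protein-coding genes of the deposited tables (60554 genes of all classes). They were taken by symbol and gene class. DLX2 was chosen by its fall with PP242 in MCF10A cells, and the other members were added because they belong to its family. The values of DLX2 with PP242 in MCF10A cells are therefore a description without a test.

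RNA-Seq was done on 32 libraries from MCF10A, a non-tumorigenic, immortalised line of breast epithelium, and MDA-MB-231, derived from a triple-negative breast carcinoma. Each line was studied in normoxia (N), after 24 hours at 0.5% O2 (H), and after the same conditions with PP242 at 2.5 µM for 3 hours (NPP and HPP). PP242 blocks the mTOR kinase in both of its complexes. Total mRNA (T) and mRNA bound to polysomes on a sucrose gradient (P) were sequenced, with 2 biological replicates, as the labels call them, in each of the 8 groups per line. Control cells received the vehicle DMSO. All MCF10A groups shared a medium with serum, EGF, hydrocortisone, cholera toxin and insulin, and all MDA-MB-231 groups one with serum and antibiotics, so line and medium cannot be told apart. The libraries held 18340916 to 46032327 counts. In bulk RNA, fewer cells with a transcript and less of it per cell cannot be told apart.

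DLX proteins are transcription factors that bind DNA through a homeodomain. Their genes lie in pairs that face each other across a short intergenic stretch with shared enhancers, and the members of a pair are often expressed together. BMP signalling, in which a ligand binds paired receptors and SMAD proteins carry the signal to the nucleus, is a known inducer of DLX genes, and MSX proteins are related homeodomain factors that can oppose them. DLX1 and DLX2 are best known for the forebrain and the jaw, DLX3 for epidermis, hair and teeth, DLX4 for placenta and blood cells, and DLX5 and DLX6 for bone and limb.

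On GRCh38 (GENCODE v44), DLX1 lies at chr2:172084740-172089677 on the plus strand and DLX2 at chr2:172099438-172102900 on the minus strand, 9760 bp apart. DLX4 (chr17:49968588-49974959, plus) and DLX3 (chr17:49990005-49995224, minus) are 15045 bp apart, and DLX6 (chr7:97005553-97011040, plus) and DLX5 (chr7:97020396-97024950, minus) are 9355 bp apart. The 250 bases before the RefSeq start sites of DLX1 and DLX2 (GRCh38.p14), the members with the highest levels in these data, are shown 5′ to 3′ on the strand of the gene, with capitals for a match to a motif searched on both strands. DLX1 is at chr2:172085257-172085506 (plus) and DLX2 at chr2:172102901-172103150 (minus).
DLX1: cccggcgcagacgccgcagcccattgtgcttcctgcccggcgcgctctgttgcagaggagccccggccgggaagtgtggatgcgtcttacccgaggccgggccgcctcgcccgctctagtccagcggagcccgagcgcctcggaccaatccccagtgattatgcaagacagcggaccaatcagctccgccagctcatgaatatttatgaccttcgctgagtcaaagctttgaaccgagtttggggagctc
DLX2: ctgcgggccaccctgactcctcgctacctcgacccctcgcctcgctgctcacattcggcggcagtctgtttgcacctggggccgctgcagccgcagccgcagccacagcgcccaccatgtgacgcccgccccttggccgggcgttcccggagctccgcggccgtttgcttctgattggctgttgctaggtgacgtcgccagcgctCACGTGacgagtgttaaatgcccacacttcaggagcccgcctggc
The motifs were ACGTG (the core of a hypoxia response element), GTAAACA (a FOXO site) and GGCGCC (an E2F-like site). DLX2 had ACGTG on both strands, the copies overlapping as a single palindrome with first bases at positions -45 and -44 from the start site, and DLX1 had no match. Among all 35116 RefSeq promoters, 18.5% held ACGTG, 2.98% GTAAACA and 16.4% GGCGCC in the same 250 bases. A match is a description of the letters and not a bound site.

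CA9, which HIF1α induces, served to check the oxygen labels, and EEF2 the PP242 labels, since its mRNA leaves polysomes when mTOR is blocked. Levels are given as CPM (counts scaled to library size, with TMM factors set over all 32 libraries). In MCF10A, CA9 ranged from 8.86 to 29.1 CPM without hypoxia and from 577 to 1540 CPM with it, and in MDA-MB-231 from 0.0476 to 0.917 and from 11.1 to 31.0 CPM. Polysomal EEF2 was at 885 to 1220 CPM without PP242 and 381 to 629 CPM with it in MCF10A, and at 364 to 599 and 299 to 345 CPM in MDA-MB-231. Neither gene's ranges overlapped in either line.

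Cell type markers went in part against the label MCF10A. The identity of that line was not tested further, and every result given for MCF10A is for the libraries labelled so. The basal keratins KRT5 (1410 to 3840 CPM) and KRT14 (542 to 4940 CPM) were high in MCF10A libraries and near 0 in MDA-MB-231. The epithelial markers TP63, CDH1 and EPCAM, however, stayed at or below 0.265, 0.424 and 0.525 CPM in every library labelled MCF10A, while the mesenchymal genes VIM (1830 to 11300 CPM), CDH2 (32.2 to 95.1 CPM) and SPARC (median 156 CPM) were high there. CDH2 and SPARC did not pass 1.28 and 0.666 CPM in MDA-MB-231. EPCAM was at 8.67 to 16.9 CPM in MDA-MB-231. Other members of the lists went the other way or were shared. DSP (17.3 to 115 CPM) and LAMB3 (237 to 3920 CPM), both epithelial, were present in MCF10A and also in MDA-MB-231 (22.3 to 73.2 and 188 to 499 CPM). Of the mesenchymal genes, AXL (median 388 against 744 CPM), ZEB1 (21.2 against 53.1) and VIM (2950 against 3520) had lower medians in MCF10A, and CAV1 a higher one (2760 against 460 CPM). Of markers of other cells, the luminal list (4 genes, mostly KRT8) had a summed median of 176 CPM without PP242 and 195 CPM with it in MCF10A, with KRT8 at 96.6 to 353 CPM, GATA3 at 6.54 to 9.48 CPM, ESR1 at or below 0.477 CPM and PGR at 0 in all 16 libraries. CD3E was also at 0 in all 16, and the summed leukocyte list (3 genes, mostly CD14) was at 2.47 to 9.71 CPM without PP242 and 2.05 to 14.0 CPM with it. The endothelial list (2 genes, mostly PECAM1, with CDH5 at 0 in 15 libraries) was at 0.113 to 1.28 CPM without PP242 and 0.237 to 2.19 CPM with it. The basal and epithelial list (8 genes, mostly KRT5) had a median of 4194 CPM without PP242 and 6483 CPM with it, in overlapping ranges. The part of these markers in the results on the DLX genes was not tested.

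In normoxia DLX2 and DLX1 were the most abundant members in MCF10A cells and the family was barely detected in MDA-MB-231. Per length of exon (RPKM), DLX2 had a mean of 4.53 (3.93 to 5.69, 4 N libraries), DLX1 of 2.93 (2.66 to 3.20), DLX4 of 0.239 (0.108 to 0.339) and DLX3 of 0.0233 (0.00825 to 0.0459) in MCF10A. No neighbours in this order overlapped. With the length of the longest transcript in place of all exons, the lowest DLX2 library (4.76) and the highest DLX1 library (4.85) did overlap. In MDA-MB-231 the mean RPKM were 0.0845 for DLX1, 0.0504 for DLX2, 0.0436 for DLX4, 0.0429 for DLX3, 0.0136 for DLX5 and 0.00345 for DLX6, and the range of each gene overlapped that of the next. DLX5 and DLX6 had 0 counts in all 16 MCF10A libraries, where 3 counts, the number that a count of 0 allows, correspond to 0.0672 to 0.143 CPM. Such limits cover counting error only.

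PP242 came with a deep fall of DLX2 in MCF10A cells, in total and polysomal mRNA alike. In total mRNA DLX2 was at 13.2 and 16.9 CPM in N, at 5.81 and 7.87 in H, at 1.36 and 0.907 in NPP, and at 0.377 and 0.648 in HPP. In polysomal mRNA it was at 11.7 and 12.1 CPM in N, 4.22 and 6.69 in H, 0.897 and 0.654 in NPP, and 0.584 and 0.689 in HPP. Each of the 8 libraries with PP242 lay below each of the 8 without it. Against N, DLX2 was 12.7-fold lower in NPP and 29.0-fold lower in HPP in total mRNA, and 15.1-fold and 19.4-fold lower in polysomal mRNA. Against H, HPP was 13.3-fold lower in T and 8.40-fold lower in P. As counts, the fall in total mRNA ran from 430 and 679 in N to 11 and 16 in HPP, well above the level of 3 counts.

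**Figure D1:**
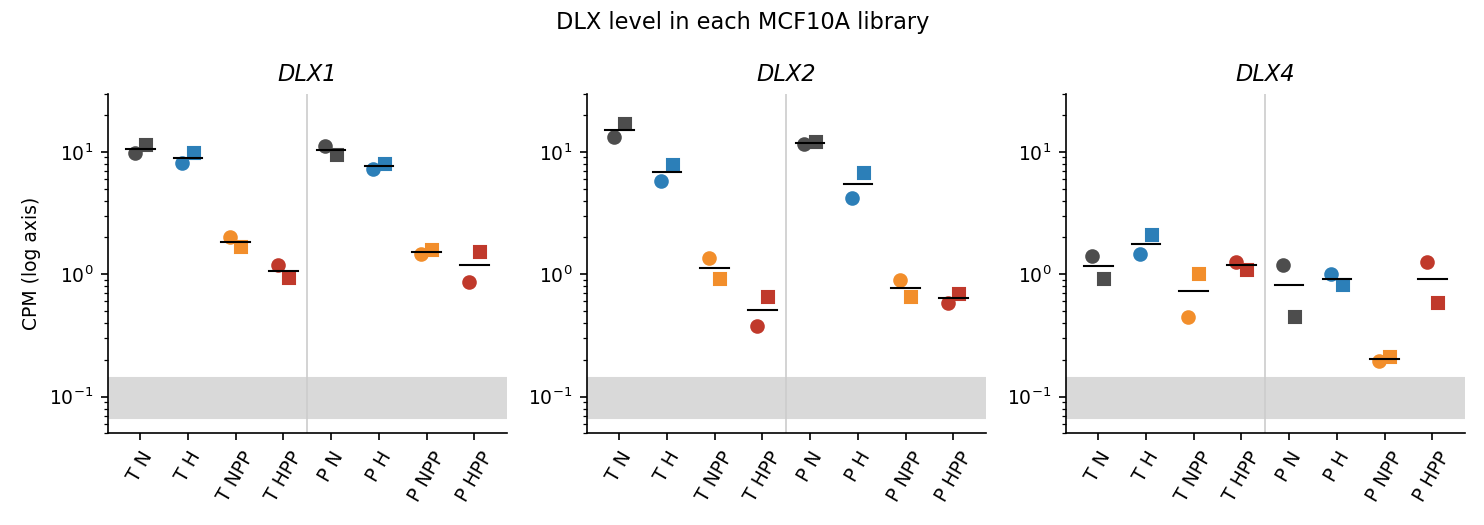
CPM on a log axis of DLX1, DLX2 and DLX4 in each of the 16 MCF10A libraries (circles replicate 1, squares replicate 2, lines the mean of the pair), by fraction (T, P) and treatment, with a grey band for 3 counts per library. DLX1 and DLX2 in the libraries with PP242 sit at 0.377 to 2.02 CPM, below all libraries without it (4.22 to 16.9 CPM), while DLX4 does not separate in this way.

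DLX1, the partner of DLX2 in the pair on chromosome 2, fell with PP242 in every MCF10A comparison. Its counts in total mRNA were 319 and 459 in N, 313 and 331 in H, 68 and 35 in NPP, and 35 and 23 in HPP, or 9.78 and 11.4 CPM in N against 1.198 and 0.931 CPM in HPP. In polysomal mRNA the counts were 296 and 424 in N, 172 and 301 in H, 52 and 60 in NPP, and 28 and 57 in HPP. All libraries with PP242 were again below all libraries without it. In edgeR's quasi-likelihood test with Benjamini-Hochberg adjustment over all genes, the log2 fold change (log2FC) of DLX1 in NPP was -2.48 in T (SE 0.31, adjusted p = 0.00589) and -2.75 in P (SE 0.31, adjusted p = 0.00278), both lower in 2 of 2 libraries. In HPP against N it was -3.27 in T (SE 0.32, adjusted p = 1.55e-04) and -3.18 in P (SE 0.31, adjusted p = 1.33e-04), a 9.67-fold and a 9.06-fold fall. In HPP against H it was -3.06 in T (SE 0.32, adjusted p = 6.89e-04) and -2.67 in P (SE 0.31, adjusted p = 0.00109). The share of all 13124 tested genes with an adjusted p under 0.05, which is what is meant here by called, was 0.648% for NPP in T, 0.823% for NPP in P, 14.9% for HPP in T, 22.2% for HPP in P, and 3.74% and 6.50% for HPP against H in T and P. DLX1 was the member called of the 2 that were tested with PP242 in MCF10A cells, the other being DLX4. The comparisons with N share the same N libraries. With a replicate block within fraction, DLX1 stayed called in all of these, and the number of all genes called in T rose from 85 to 223 for NPP, from 1956 to 3484 for HPP and from 491 to 1153 for HPP against H.

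The NPP result of DLX1 rested on few libraries. In T its adjusted p was 0.0533 without N replicate 1 and 0.0770 without N replicate 2, and in P it was 0.0569 without NPP replicate 1 and 0.0683 without NPP replicate 2, with log2FC between -2.88 and -2.36 in all of these fits. In a fit of only the 4 libraries compared, the adjusted p of DLX1 was 0.907 for NPP in T and 0.138 and 0.0622 for HPP against H in T and P, at almost the same log2FC (-2.48, -3.03 and -2.67). The 2 fits in T called 0 of 12474 and 0 of 12752 genes, so that the calls lost there say little about DLX1. The fit in P called 38 of 12640 genes, and DLX1 was not among them.

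There were 1.05 to 1.48 DLX2 counts for each DLX1 count in the 4 N libraries of MCF10A, 0.581 to 0.837 in the 4 H libraries, 0.417 to 0.676 in the 4 NPP libraries and 0.314 to 0.696 in the 4 HPP libraries. These ratios are a description, since the DLX2 values with and without PP242 chose the gene, and each 4 libraries are 2 replicates in both fractions. Within the 8 libraries without PP242 the log2 CPM of DLX1 and DLX2 had a Pearson r of 0.91 and a Spearman rho of 0.79, and within the 8 with PP242 an r of 0.66 and a rho of 0.83, given as a description since the libraries share treatments and cultures.

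**Figure D2:**
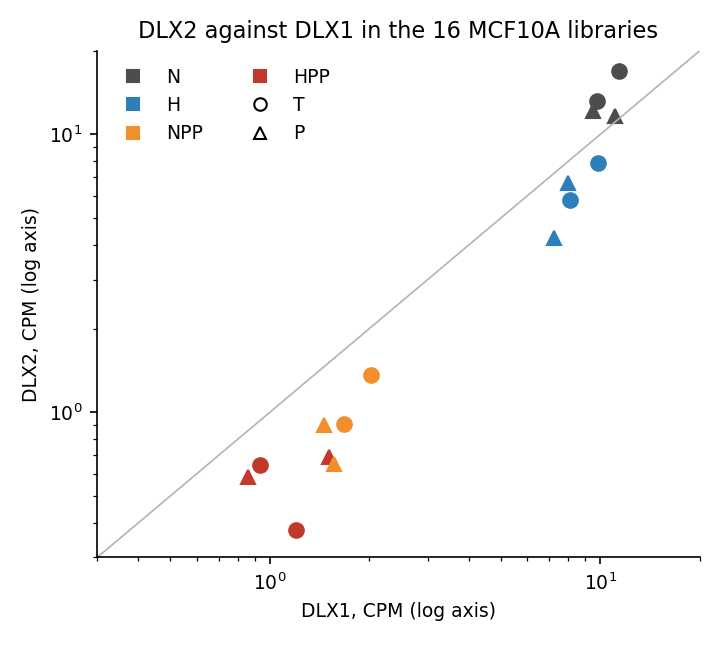
CPM of DLX2 against CPM of DLX1 on log axes in the 16 MCF10A libraries, by treatment (colour) and fraction (circles T, triangles P), with a line at equal CPM. The 4 N libraries lie above the line and the 4 H libraries below it, as do the 8 with PP242. The DLX2 values with and without PP242 chose the gene.

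DLX4, on chromosome 17, was not called by edgeR with PP242 against N or H. Its MCF10A values with and without PP242 overlapped. In total mRNA of MCF10A it was at 1.41 and 0.922 CPM in N, 1.48 and 2.09 in H, 0.445 and 1.00 in NPP, and 1.27 and 1.09 in HPP. In polysomal mRNA it was at 1.201 and 0.448 CPM in N, 1.01 and 0.823 in H, 0.196 and 0.209 in NPP, and 1.26 and 0.583 in HPP. The lowest values were those of the NPP polysomal libraries, with 7 and 8 counts, and they did not overlap with those of any other polysomal group. The log2FC of DLX4 in NPP was -1.97 in P (SE 0.64, adjusted p = 0.184, -2.56 without N replicate 2 and -1.09 without N replicate 1) and -0.67 in T (SE 0.58, adjusted p = 0.770, -1.34 without NPP replicate 2 and -0.17 without NPP replicate 1), and in HPP it was 0.13 in P and 0.05 in T (adjusted p = 0.898 and 0.965). HPP against NPP in P gave 2.10 (SE 0.64, adjusted p = 0.0700), where 7.44% of all genes were called and DESeq2 called DLX4 (adjusted p = 0.0294). Without HPP replicate 1 it was 1.38 and without HPP replicate 2 it was 2.58, not called in either.

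DLX3, DLX5 and DLX6 did not pass the filter on low counts in MCF10A cells and were not tested there. DLX3 had 13 counts over the 16 libraries, 9 of them in the 4 N libraries, and 8 libraries at 0. The RNA listed as DLX2-AS1, which starts beside DLX2 on the other strand (matched by its identifier, DLX2-DT in GENCODE v44), had 0 to 6 counts per MCF10A library, and DLX6-AS1 had none in either line. The library kit does not mark strand, so that reads of DLX6 and of DLX6-AS1, which overlap, could not have been told apart.

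In the main edgeR fits, hypoxia alone was not enough for a call on any member. In MCF10A cells DLX2 had a log2FC of -1.12 in T (SE 0.32, adjusted p = 0.142) and -1.204 in P (SE 0.32, adjusted p = 0.104), lower in 2 of 2 H libraries in both fractions. The N libraries, and with them perhaps the H libraries, lie behind the choice of DLX2 by its fall with PP242. Its comparison of H with N is therefore not independent of that choice, and its p-values are a description. With that limit, DESeq2 called DLX2 in both fractions (adjusted p = 0.0346 in T and 0.0206 in P). In T, a fit of only the 4 libraries compared did so too (adjusted p = 0.0405). DLX1 had -0.22 in T (SE 0.28, adjusted p = 0.971) and -0.51 in P (SE 0.29, adjusted p = 0.530), and DLX4 0.63 in T (SE 0.56, adjusted p = 0.884) and 0.10 in P (SE 0.58, adjusted p = 0.986). Of all genes, 1.54% were called in T and 1.49% in P. With a replicate block within fraction 438 genes in place of 202 were called in T, and DLX2 had an adjusted p of 0.0748 in T and 0.0508 in P. With PP242 in both arms, HPP against NPP, DLX1 had -0.80 in T (SE 0.31, adjusted p = 0.195) and -0.43 in P (SE 0.30, adjusted p = 0.444), where 4.17% of genes were called in T (547, or 1226 with a replicate block within fraction). DLX2 was 2.28-fold lower in HPP than in NPP in T without overlap, and 1.28-fold lower in P with overlap.

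**Figure D3:**
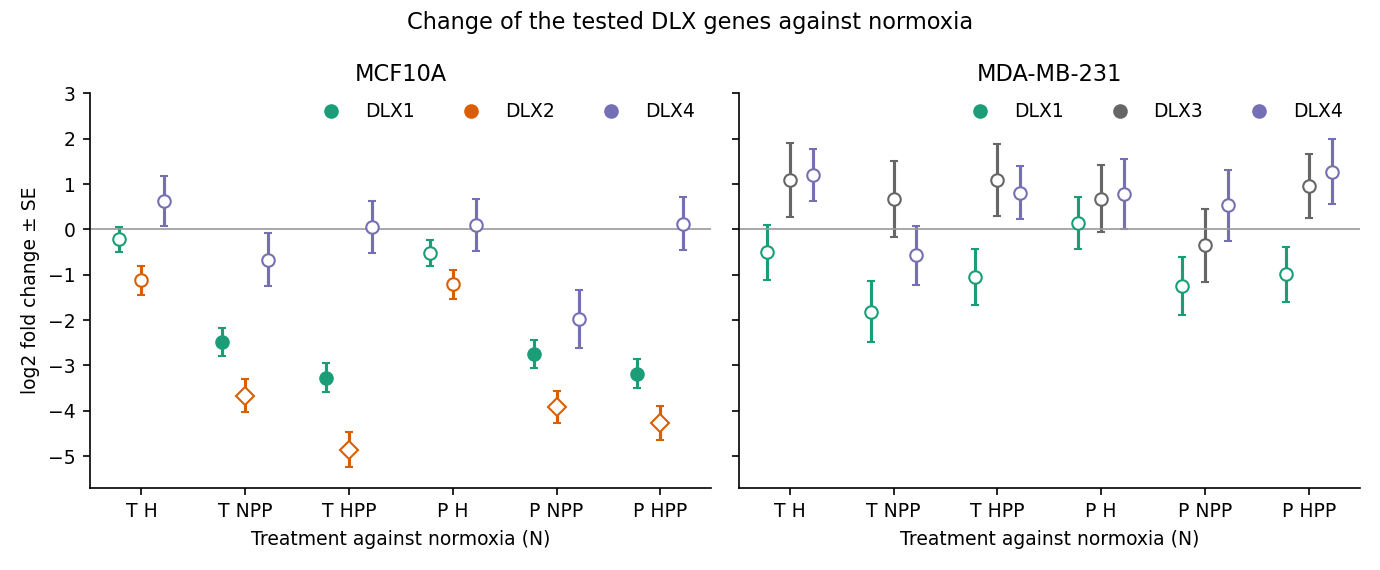
Log2FC with its SE of the tested DLX genes against normoxia in MCF10A (left) and MDA-MB-231 (right), for H, NPP and HPP in T and P. Filled circles mark an adjusted p under 0.05 and open circles one above it, and diamonds mark DLX2 with PP242, which has no test. DLX1 in MCF10A is filled in the 4 comparisons with PP242, at -2.48 to -3.27, and no circle is filled in MDA-MB-231.

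Translational efficiency (Te) was taken as log2FC in P minus log2FC in T. No tested member was called for Te. In MCF10A cells Te of DLX1 was -0.29 in H (SE 0.40), -0.27 in NPP (SE 0.41) and 0.09 in HPP (SE 0.42), with adjusted p of 0.985 to 1. For DLX2 it was -0.08 in H (SE 0.44, adjusted p = 1), and as a description -0.25 in NPP (SE 0.47) and 0.58 in HPP (SE 0.49). Polysomal against total mRNA in N gave 0.06 for DLX1 (SE 0.28, adjusted p = 0.964) and -0.24 for DLX2 (SE 0.31, adjusted p = 0.852). The test called 0% of genes in MCF10A for Te in H, NPP and HPP and for P against T in N. Unadjusted p under 0.05 were reached by 23, 296, 433 and 1660 genes, and DESeq2 called 0, 94 and 140 for Te in H, NPP and HPP and, for P against T in N, 22 higher and 79 lower in P. With a replicate block within fraction edgeR called 100 genes for Te in HPP and 2189 for P against T in N, and neither DLX1 nor DLX2 in the comparisons where they were tested.

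In MDA-MB-231 cells the members were too rare to follow. DLX1 counts in total mRNA were 10 and 7 in N, 7 and 8 in H, 2 and 5 in NPP, and 7 and 5 in HPP, and in polysomal mRNA 8 and 9 in N, 6 and 14 in H, 6 and 3 in NPP, and 5 and 7 in HPP. DLX1 was at 0.255 to 0.333 CPM in N, 0.167 to 0.399 in H and 0.0507 to 0.175 with PP242. It passed the filter through 3 N and 2 H libraries and none with PP242, so that its differences between N and PP242 lean towards a fall by this selection. The log2FC of DLX1 was -1.81 for NPP in T (SE 0.67, adjusted p = 0.332, -2.58 without NPP replicate 2 and -1.27 without NPP replicate 1), -1.25 for NPP in P (SE 0.64, adjusted p = 0.425), -1.04 for HPP in T (SE 0.62, adjusted p = 0.288) and -0.99 for HPP in P (SE 0.61, adjusted p = 0.275). In H it was -0.50 in T (SE 0.60, adjusted p = 0.808) and 0.13 in P (SE 0.57, adjusted p = 0.937).

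DLX4 passed the filter in MDA-MB-231 through 1 N, 2 H and 2 HPP libraries, a selection that leans towards a rise in H and HPP. In total mRNA it had 8 and 6 counts in N, 29 and 14 in H, 9 and 5 in NPP, and 28 and 9 in HPP. Its log2FC was 1.204 for H in T (SE 0.57, adjusted p = 0.406), 0.81 for HPP in T (SE 0.58, adjusted p = 0.384) and 1.28 for HPP in P (SE 0.71, adjusted p = 0.226), and it was -1.45 for P against T in N (SE 0.75, adjusted p = 0.216). For HPP in T it was -0.02 without HPP replicate 1 and 1.39 without HPP replicate 2. DLX3 had 2 to 15 counts per library, DLX2 1 to 10, DLX5 0 to 2 and DLX6 0 to 2. DLX3 passed the filter through 1 H and 1 HPP library, which also leans towards a rise in H and HPP. DLX2, DLX5 and DLX6 did not pass the filter, and none of DLX1, DLX3 and DLX4 was called in the comparisons whose shares follow. The shares of all 13510 genes called were 1.27%, 0.555% and 13.2% for H, NPP and HPP in T, 2.29%, 1.95% and 19.4% in P, 3.78% and 11.5% for HPP against H in T and P, 0.0148%, 0.340% and 0.696% for Te in H, NPP and HPP, and 13.1% for P against T in N.

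**Figure D4:**
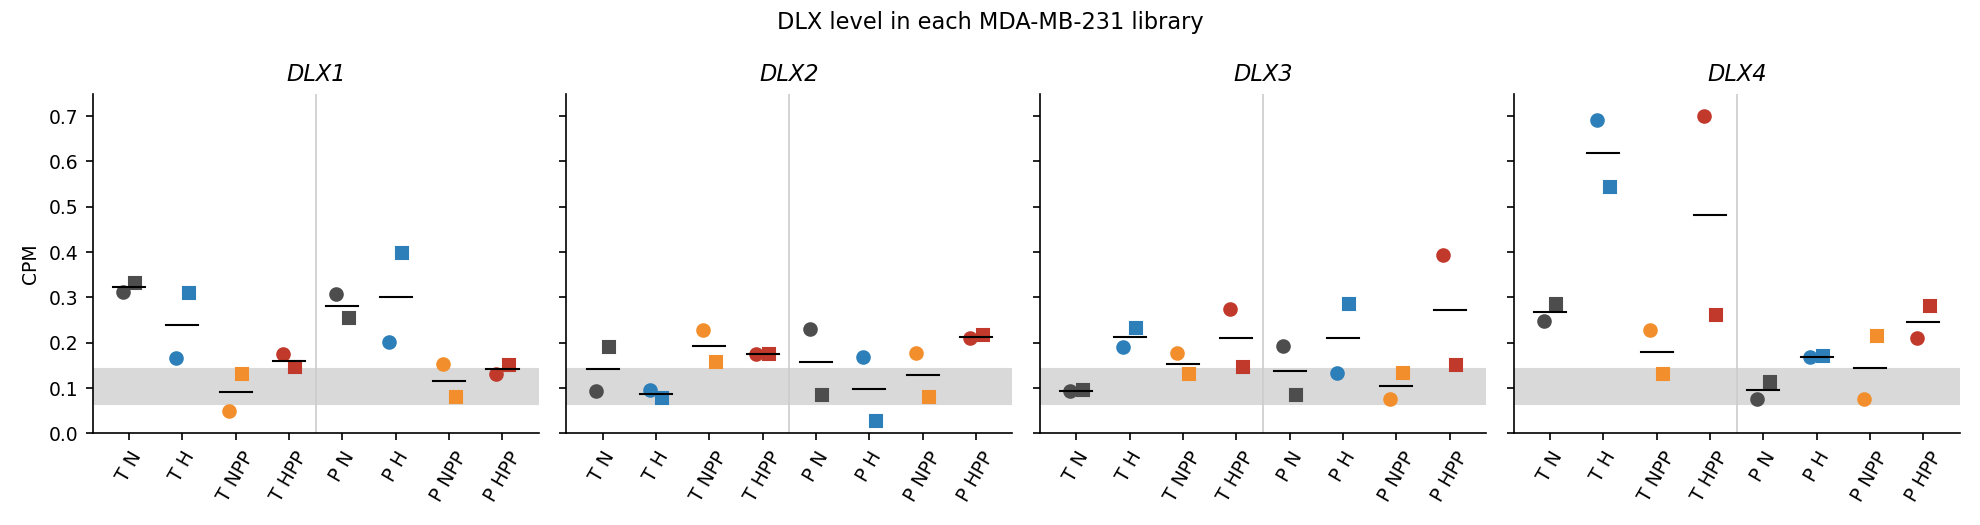
CPM on a linear axis of DLX1, DLX2, DLX3 and DLX4 in each of the 16 MDA-MB-231 libraries (circles replicate 1, squares replicate 2, lines the mean of the pair), with a grey band for 3 counts per library. Values run from 0.0285 to 0.701 CPM, and many libraries lie in or near the band.

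The lines were compared in a joint fit of all 32 libraries for DLX1 and DLX4, which passed the filter in both. The level of the filter was reached in 16 MCF10A libraries for DLX1 and 14 for DLX4. In MDA-MB-231 it was reached in 5 for each gene, of them 3 (DLX1) and 1 (DLX4) in N. The size of the differences between the lines thus rests on few counts in MDA-MB-231. In N, DLX1 was lower in MDA-MB-231 by a log2FC of -5.03 in T (SE 0.38, adjusted p = 1.11e-09) and -5.19 in P (SE 0.38, adjusted p = 6.87e-10), 32.7-fold and 36.4-fold. DLX4 had -2.12 in T (SE 0.59, adjusted p = 0.00645) and -3.00 in P (SE 0.68, adjusted p = 0.00107). In P this was -3.60 without MCF10A N replicate 2 and -2.17 without MCF10A N replicate 1. In T the adjusted p of DLX4 was 0.0544 without MCF10A N replicate 1 and 0.0583 without MDA-MB-231 N replicate 1. Of all genes, 40.7% were called in T and 45.4% in P. DLX2 had 311 to 679 counts in the N libraries of MCF10A against 3 to 6 in the MDA-MB-231 ones.

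The difference between the lines in the log2FC of DLX1 with HPP (MDA-MB-231 minus MCF10A) was 2.33 in T (SE 0.58, adjusted p = 0.0267) and 2.15 in P (SE 0.57, adjusted p = 0.0395), with 5 to 10 counts of DLX1 per MDA-MB-231 library. In the fit of MDA-MB-231 alone no library with PP242 reached the level of the filter. Of all genes 3.31% were called in T and 3.60% in P. The difference in the effect of NPP on DLX1 was 0.73 in T (SE 0.65, adjusted p = 1.00) and 1.54 in P (SE 0.60, adjusted p = 0.945), where 0.0560% and 0.126% of genes were called. The HPP call rested on single libraries. In T it held without MCF10A N replicate 1 or MCF10A HPP replicate 1 and was lost without any 1 of the other 6 libraries (adjusted p up to 0.213), and in P it held without MCF10A HPP replicate 2 and was lost without any 1 of the other 7 (adjusted p up to 0.285). With no filter or with all gene classes the adjusted p in P was 0.0526 and 0.0579. 

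The BMP pathway was read from a list of 29 genes, of which 26 were tested in MCF10A and 25 in MDA-MB-231. In total mRNA of MCF10A, 0 rose and 5 fell with NPP, and 1 rose and 8 fell with HPP, with a median log2FC of -0.745 and -1.02 against 0.0185 and -0.0124 over all genes. In polysomal mRNA 1 rose and 6 fell with NPP and 3 rose and 9 fell with HPP. The median log2FC there was -0.415 and -0.509, against -0.0351 and -0.0364 over all genes. Some list genes parted by replicate in T with PP242, as SMAD5 in NPP (99.6 CPM in replicate 1, 17.2 in replicate 2) and BMPR2 in HPP (59.4 and 11.5). Others did not, as SMAD6 in NPP (2.05 and 1.91). None of the 26 was called in H in either fraction, where 1.54% (T) and 1.49% (P) of all genes were, so that this count says little of the list. The shares of the tested list called in MCF10A were 19.2% (NPP) and 34.6% (HPP) in T and 26.9% and 46.2% in P, against 0.648%, 14.9%, 0.823% and 22.2% of all genes. In H, NOG was at 19.1 and 23.1 CPM against 8.73 and 8.52 in N in T (adjusted p = 0.102), and ID2 had a log2FC of 1.47 in T and 1.32 in P (adjusted p = 0.0619 and 0.0937). In MDA-MB-231, 1 rose and 1 fell with NPP in both fractions, 8% of the tested list against 0.555% of all genes in T and 1.95% in P, and with HPP 3 rose and 3 fell in T and 4 rose and 2 fell in P, 24% of the tested list in both, against 13.2% and 19.4% of all genes.

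Of the targets, ID1, ID2 and ID3 are inhibitors of basic helix-loop-helix factors. ID3 in total mRNA of MCF10A was at 251 and 331 CPM in N, 142 and 212 in H, 39.0 and 86.4 in NPP, and 10.6 and 15.0 in HPP, with no overlap between libraries with and without PP242. Its log2FC was -2.17 for NPP (SE 0.38, adjusted p = 0.0318) and -4.49 for HPP (SE 0.42, adjusted p = 1.14e-04). ID2 changed by -2.64 for NPP in T (SE 0.36, adjusted p = 0.00861) and -2.58 for HPP (SE 0.36, adjusted p = 0.00101), and ID1 by -3.29 for HPP (SE 0.49, adjusted p = 0.00133). With NPP, ID1 had -2.12 in T (SE 0.46, adjusted p = 0.0772) and fell in P (-2.56, SE 0.47, adjusted p = 0.029). In MDA-MB-231, ID3 fell by 3.19 on the log2 scale with NPP in T (SE 0.22, adjusted p = 3.91e-06) and by 2.51 with HPP, and ID1 by 1.24 with HPP. ID2 had 0.34 and 0.68 there in T (adjusted p = 0.880 and 0.269) and rose with HPP in P (1.38, SE 0.39, adjusted p = 0.0229), and ID4, not tested in MCF10A, had 0.54 and 0.39 (adjusted p = 0.359 and 0.240).

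MSX1 and MSX2, the other homeodomain targets on the list, are the relatives that can oppose DLX proteins. MSX1 was at 10.7 and 8.89 CPM in N in total mRNA of MCF10A and at 1.75 and 1.98 CPM in HPP, a log2FC of -2.37 (SE 0.34, adjusted p = 0.00116). With NPP MSX1 had -0.88 (SE 0.32, adjusted p = 0.377). MSX2 had -1.17 with HPP in T (SE 0.40, adjusted p = 0.0701) and fell in P (-1.50, SE 0.39, adjusted p = 0.0184). In MDA-MB-231 MSX1 did not pass the filter and MSX2 had 0.37 with HPP in T (adjusted p = 0.355).

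Among inhibitors of the pathway, SMAD6 and SMAD7 act inside the cell and are themselves induced by it. SMAD6 in total mRNA of MCF10A was at 15.6 and 18.8 CPM in N, 10.4 and 9.71 in H, 2.05 and 1.91 in NPP, and 0.719 and 0.931 in HPP. Its log2FC was -3.07 for NPP (SE 0.26, adjusted p = 8.36e-04) and -4.36 for HPP (SE 0.28, adjusted p = 3.22e-05). SMAD7 fell by 1.86 on the log2 scale with NPP in T (SE 0.26, adjusted p = 0.00875) and NOG, a secreted antagonist of BMP ligands, by 1.85 (SE 0.35, adjusted p = 0.0403). FST, which binds activins and BMPs, had 2.24 with NPP in T (SE 0.53, adjusted p = 0.107), and rose in P with NPP (2.99, SE 0.55, adjusted p = 0.0290). In MDA-MB-231 FST rose with NPP in T (1.03, SE 0.18, adjusted p = 0.0208) while NOG rose in H without PP242 (1.11, SE 0.15, adjusted p = 8.78e-04) and in HPP (1.05, SE 0.15, adjusted p = 6.07e-04), and had 0.15 in NPP (adjusted p = 0.854).

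Of the ligands, BMP4 fell with HPP in T of MCF10A (-1.62, SE 0.37, adjusted p = 0.0127) and BMP2 rose (2.71, SE 0.81, adjusted p = 0.0431). BMP2 had 20 and 18 counts in N and 49 and 131 in HPP in T, so that its replicates differed widely. BMP6 was called in P with HPP (adjusted p = 0.0164), with 0 and 0 counts in N and 5 and 29 in HPP. Of the signal carriers, SMAD1 fell with HPP in T (-3.07, SE 0.55, adjusted p = 0.00392). None of the receptors was called in these MCF10A comparisons, where HPP called 14.9% (T) and 22.2% (P) of all genes. For so few genes this says little of the receptors. In MDA-MB-231 ACVR2B rose with HPP in T (1.05, SE 0.25, adjusted p = 0.0138).

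**Figure D5:**
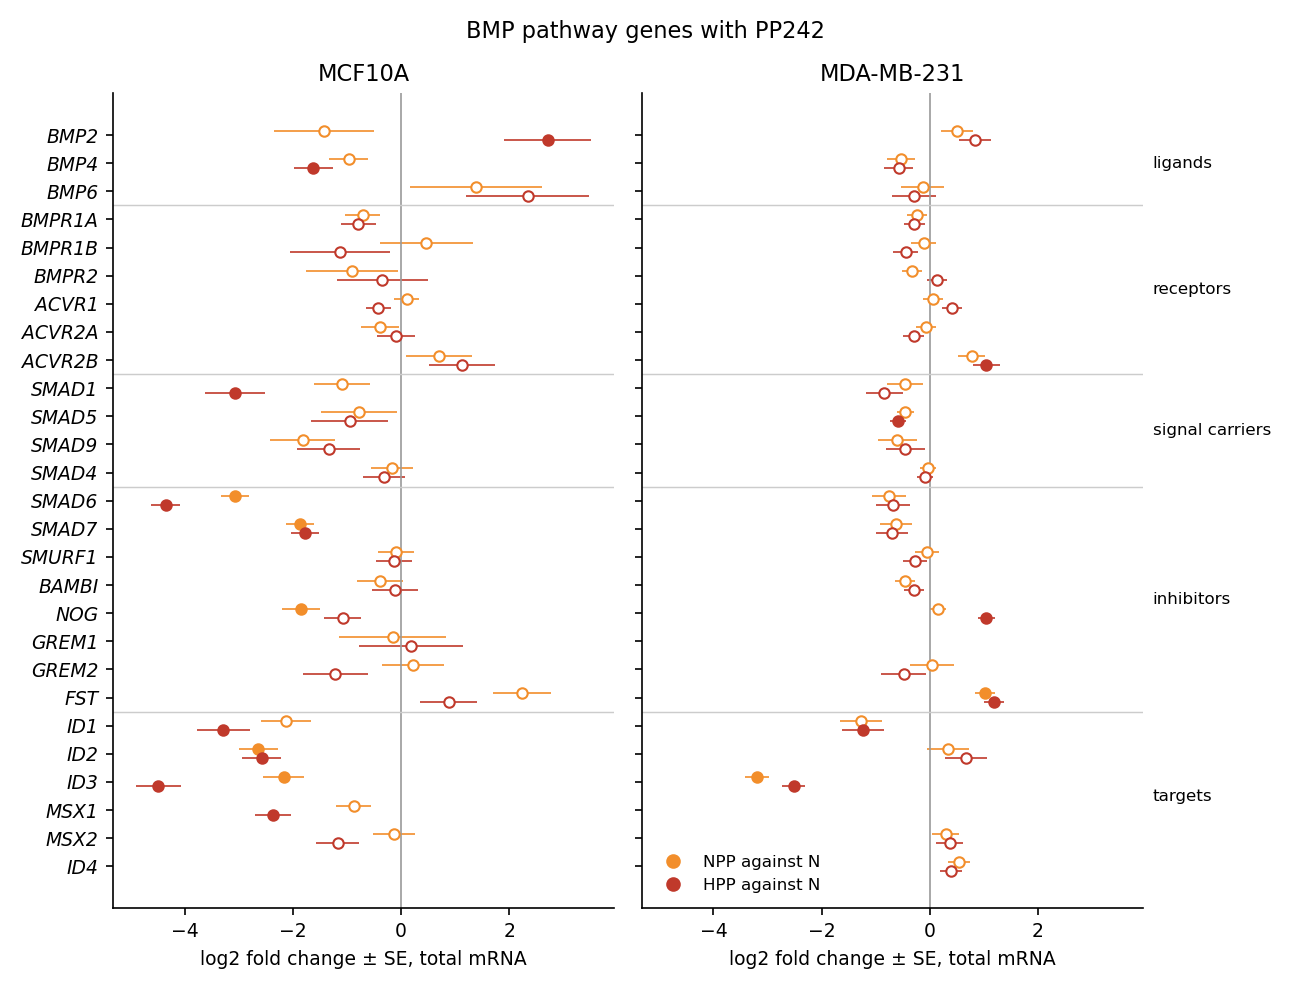
Log2FC with its SE in total mRNA of the tested BMP pathway genes, by role, for NPP (orange) and HPP (red) against N in MCF10A (left) and MDA-MB-231 (right), filled where the adjusted p was under 0.05. In MCF10A the filled points below 0 are SMAD6, SMAD7, NOG, SMAD1, BMP4, ID1, ID2, ID3 and MSX1, with BMP2 filled above 0, and in MDA-MB-231 ID3 stands farthest from 0.

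A second list held 20 genes known as upstream regulators, partners or targets of DLX proteins, of which 11 were tested in MCF10A and 13 in MDA-MB-231. It too was chosen with earlier results of these data known, and its counts and shares are a description. MSX1 and MSX2 are on both lists. With HPP in T of MCF10A, 2 rose and 2 fell, 36.4% of those tested against 14.9% of all genes, with a median log2FC of 0.244 against -0.0124 over all genes. IRS2, an adaptor of the insulin receptor, rose (2.10, SE 0.50, adjusted p = 0.0163), as did MYC (1.08, SE 0.28, adjusted p = 0.0256). RUNX2, a factor of bone differentiation, fell (-1.72, SE 0.52, adjusted p = 0.0458), as did MSX1. With NPP none was called in T, where 0.648% of all genes were. In P, where 0.823% of all genes were called, MYC rose (1.53, SE 0.29, adjusted p = 0.0320). In H none was called in MCF10A, against 1.54% (T) and 1.49% (P) of all genes. With 11 genes tested, counts of 0 at such shares say little of the list. In MDA-MB-231, 2 of 13 were called with HPP in T, 15.4% against 13.2% of all genes, which is near that background. MYC rose (0.57, SE 0.13, adjusted p = 0.0122) and RUNX2 fell (-0.54, SE 0.15, adjusted p = 0.0346), and EDN1, a ligand that induces DLX genes in the jaw, rose in H (0.95, SE 0.13, adjusted p = 0.00148).

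Of the nearest protein-coding genes on each side of the DLX pairs, 0 of 5 tested were called with NPP in MCF10A cells in either fraction, where 0.648% (T) and 0.823% (P) of all genes were. With HPP in T, 1 of 5 was called in MCF10A and 2 of 5 in MDA-MB-231, against 14.9% and 13.2% of all genes. METAP1D, a mitochondrial methionine aminopeptidase that ends 2309 bp from DLX1, had -0.23 with NPP in T of MCF10A (SE 0.37, adjusted p = 0.863) and 0.15 in P (SE 0.38, adjusted p = 0.927), and it fell with HPP in T (-1.31, SE 0.38, adjusted p = 0.0404) and had -0.82 in P (adjusted p = 0.142). In MDA-MB-231 METAP1D also fell with HPP in T (-0.92, SE 0.17, adjusted p = 0.00339) and had -0.47 in P (adjusted p = 0.0593). ITGA6, 324453 bp beyond DLX2, was not called with PP242 in MCF10A and rose with HPP in T of MDA-MB-231 (0.62, SE 0.17, adjusted p = 0.0311). ITGA3, SHFM1 and SDHAF3, beside the other pairs, were not called with NPP or HPP against N in either line, and TAC4 was not tested.

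The genes whose log2 CPM was most like that of DLX2 over the 16 MCF10A libraries were SMAD6 (Pearson r = 0.981), DLX1 (0.976), PMEPA1 (0.966), GATA2 (0.966), AEN (0.961), SKP2 (0.959), CDC25A (0.955), GLI2 (0.955), TMEM201 (0.954) and HOXC13 (0.948). For DLX1 they were SMAD6 (0.986), GATA2 (0.985) and PMEPA1 (0.979), and for DLX4 MALL (0.874), SLC4A3 (0.872) and GLTP (0.865). The libraries share treatments and fall into a set with PP242 and a set without it, so these values describe mainly that separation. By Spearman rank 1 of the 10 genes named for DLX2 stayed among its top 10, by a within-fraction r 9, and with a smaller prior count 10. Of the 3 named for DLX1 and the 3 for DLX4 none stayed by Spearman rank, and by a within-fraction r 3 and 1 did. In MDA-MB-231, where the counts are few, DLX1 was most like ID3 (0.848), DLX3 most like ZNF404 (0.783) and DLX4 most like B3GNT5 (0.895). Within fraction, 1 of the 3 leading genes stayed for DLX1 and 0 of 3 for DLX3 and for DLX4.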

How the data were processed

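Expected counts per gene, deposited by the authors as whole numbers, were used as they stand. Per the study's methods reads were aligned with STAR and quantified with RSEM on GRCh38. The submitters' processing notes name GRCh37, and the tables hold no coordinates. Of 60554 gene identifiers 93.4% were found in GENCODE v44, which gave positions and lengths on GRCh38. All columns had a sample (0 without one). Library totals were 18340916 to 46032327, and 3 counts correspond to 0.0649 to 0.143 CPM.

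Each line (16 libraries, 8 groups of 2) was fitted on its own with edgeR 4.0.16 in R 4.3.3 (TMM, filterByExpr, quasi-likelihood F test, protein-coding genes), and both lines jointly for differences between them. Adjusted p-values are Benjamini-Hochberg over all genes tested, with a threshold of 0.05, and SE is the absolute log2FC over the square root of F. The replicates are biological, per the labels. Same-numbered libraries deviated together within T of MCF10A (6 of 6 correlations of deviations from group means over 0.1, from 0.283 to 0.778), but in 3 of 6 within P of MCF10A and in 4 of 6 within each fraction of MDA-MB-231. Titles also share a number between a T and a P library, and 1 of 4 such correlations in MCF10A and 3 of 4 in MDA-MB-231 were over 0.1. An exact permutation test of 2 against 2 cannot go below p = 0.333 and was not used. Log2 CPM for likeness used a prior count of 2. Genes named beside the DLX members were those called on the lists (up to 6 of the largest changes per comparison and BMP4, with MSX1, MSX2 and ID1 to ID4 wherever tested, and for other homeobox genes up to 3 each way with HPP), the neighbours, and those of highest Pearson r (10 for DLX2, 3 for each other member, fewer printed for MDA-MB-231). Some genes so named are also given in comparisons where they were not called. The members and lists were chosen with earlier results of these data known. Alternatives were DESeq2 1.42.0, other filters and gene classes, a fit of only the libraries compared, a looser threshold, replicate blocks and leaving out each library. A block by culture was added after the data were seen. The fits were tested on simulated counts for NPP against N in T, with 50 genes changed at each fold. In MCF10A edgeR called 4% of 2-fold, 48% of 4-fold, 84% of 8-fold and 90% of 16-fold changes. DESeq2 called 18%, 68%, 96% and 92% of them. In MDA-MB-231 edgeR called 60%, 82%, 94% and 98%. A missing call of a 2-fold or 4-fold change in MCF10A therefore says little. Figures were drawn with matplotlib 3.10.9.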

Additional observations from a re-analysis of the deposited data

Results flagged for a closer look

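The difference between the lines in the effect of HPP on DLX1 passed a test of that difference in the joint edgeR fit of all libraries, but not in most fits that left out 1 library. The difference in log2FC (MDA-MB-231 minus MCF10A) was 2.33 in total mRNA (adjusted p = 0.0267) and 2.151 in polysomal mRNA (adjusted p = 0.0395). In T the call was lost on leaving out any 1 of 6 of the 8 libraries (adjusted p up to 0.213), and in P on leaving out any 1 of 7 of the 8 (up to 0.285), with no filter (0.0526) and with all gene classes (0.0579). DLX1 had 5 to 10 counts per library in MDA-MB-231 in these groups, and no library with PP242 in that line reached the level of the filter.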

How the results depend on the processing

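Of the comparisons' own values under the alternatives, 422 kept their direction and side of the threshold, 12 counts of called members moved, 3 values passed the threshold and 3 fell short of it. Of the other values 319 kept theirs, 4 passed the threshold (DLX4 for HPP against NPP in P), 2 fell short of it (the line difference of DLX1 with HPP in P) and 2 changed sign (P against T in N of DLX1). The cause of the changes was not tested. With DESeq2, DLX2 was called in H (-1.10 in T, -1.18 in P), which moved the counts of called members to 1 in both, and DLX4 was called for HPP against NPP in P (2.15, count 1). In a fit of only the libraries compared, DLX2 in H in T was -1.11 (count 1) and DLX4 for HPP against NPP in P 2.15 (count 1), while DLX1 was no longer called for NPP in T (-2.48), HPP against H in T (-3.03) and HPP against H in P (-2.67), with counts of 0. The comparison of H with N for DLX2 is not independent of the choice of that gene, so its calls in both fits are a description. At an adjusted p under 0.10 the count for HPP against NPP in P was 1. The line difference of DLX1 with HPP in P was 2.18 with no filter and 2.14 with all gene classes (counts 0). P against T in N for DLX1 turned to -0.0171 with no filter.

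Replicate numbers paired the total mRNA libraries of MCF10A. In P of MCF10A the N, H and HPP libraries deviated together (correlations of 0.311 to 0.635), but not with those of NPP (-0.1 to 0.0582). Replicate numbers were not shown to pair the MDA-MB-231 libraries. With a replicate block within fraction, DLX1 in P against T in N was -0.0147 and DLX4 for HPP against NPP in P was 2.00 (adjusted p = 0.0346 by edgeR, count 1). The block changed the call of no member in total mRNA of MCF10A. With culture as the block, added after the data were seen, neither DLX1 nor DLX2 was called in MCF10A for Te in H or for P against T in N.

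Leaving out each library in turn changed the counts of called members to 0 in at least 1 fit (range 0 to 1) for NPP in T and in P of MCF10A and for the line difference with HPP in T and in P, and the count for the lines in T in N was 1 to 2. The log2FC of DLX1 ranged from -2.622 to -2.358 (NPP in T), -2.884 to -2.607 (NPP in P), -0.317 to 0.4019 (Te in HPP) and -0.1626 to 0.2001 (P against T in N) in MCF10A, and from -0.4493 to 0.5308 (H in P) in MDA-MB-231. The line difference of DLX1 ranged from -0.05148 to 1.259 (NPP in T), 2.039 to 2.543 (HPP in T) and 1.814 to 2.617 (HPP in P). The log2FC of DLX2 in MCF10A ranged from -4.004 to -3.425 (NPP in T), -4.162 to -3.705 (NPP in P), -4.169 to -3.426 (HPP against H in T), -0.4098 to 0.1842 (Te in H), -0.5019 to 0.08516 (Te in NPP) and 0.2647 to 1.007 (Te in HPP). For DLX4 it was -0.2325 to 0.3873 (HPP in T), -0.4965 to 1.051 (H in P) and -0.5846 to 1.069 (HPP in P) in MCF10A, -0.01846 to 1.387 (HPP in T) in MDA-MB-231, and -2.4 to -1.792 between the lines in T in N. Counts of 2 to 29 per library limit DLX1 and DLX4 in MDA-MB-231.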

Other observations

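A list of 169 other homeobox genes left out the DLX and the HOX genes. Of these 169, 67 passed the filter in MCF10A cells and 70 in the carcinoma line. With HPP in total mRNA of MCF10A 3 rose and 10 fell (median log2FC -0.123), and in polysomal mRNA 6 rose and 14 fell (median log2FC 0.0112). These are 19.4% and 29.9% of the tested genes, against 14.9% and 22.2% of all genes. The shares are a description, since this list was also chosen with earlier results of these data known. POU2F3, a factor of tuft cells, rose (4.63 in T and 3.40 in P), and LHX2, known for the forebrain and hair follicle, fell (-2.16 and -2.34). With NPP in MCF10A 0 of 67 were called by edgeR in either fraction, where 0.648% (T) and 0.823% (P) of all genes were, so that this count says nothing particular of them. With HPP in T of MDA-MB-231 cells, 4 rose and 3 fell (10% against 13.2% of all genes), among them NKX2-8 (2.10) and LHX4 (-2.21). TGIF1, a repressor of SMAD signalling, rose with HPP in T of both lines (1.33 in MCF10A and 0.72 in MDA-MB-231).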
